A study of Mus musculus with 4 samples.

Results

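T, Eomes, Mixl1, Gsc, Nkx2-5 and Hand1 encode transcription factors that direct cells through the primitive streak and into mesoderm, and their histone marks were examined in mouse rosette stem cells. The 6 genes were taken by name, each with a window of 20 to 40 kb on build mm9, and every called region reaching into a window was kept. This gave 36 of the 76945 regions in the 4 lists. H3K27me3 contributed 6 regions in CGR8 and 7 in R1, and H3K4me3 contributed 11 and 12.

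The cells came from 2 embryonic stem cell lines, CGR8 (strain 129/Ola) and R1 (strain 129), for which the labels name no added allele. Both lines had been cultured for 8 days in N2B27 with LIF (leukaemia inhibitory factor), the MEK inhibitor PD325901 at 1 µM and IWP2 at 2 µM, an inhibitor of WNT secretion, so all libraries share these agents and no untreated culture was analysed here. H3K27me3 and H3K4me3 were each mapped by chromatin immunoprecipitation and sequencing in 1 library per line. A mean ± SD below is therefore over n = 2 lines, a difference between the lines has no replicate check, and the label rosette stem cell could not be set against marker expression, which these libraries do not measure. No source used here gives the read totals. The lists held 14575 (CGR8) and 12511 (R1) H3K27me3 regions and 25241 and 24618 H3K4me3 regions. An uncalled region was not detected at the depth of its library and is not thereby shown to lack the mark.

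The primitive streak forms where epiblast cells receive WNT and NODAL signals, and T and Eomes, both T-box factors, are among the first genes switched on there. Mixl1 and Gsc encode homeodomain proteins of the streak and its anterior end, while Nkx2-5 and Hand1 act later, in the heart field and in cardiac and extraembryonic mesoderm. In pluripotent cells such genes are the textbook case of bivalent chromatin: H3K27me3, written by Polycomb repressive complex 2 on silent genes, coexists with H3K4me3, written at CpG-rich promoters by the Trithorax-type methyltransferases.

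Since both marks are known to gather at CpG-rich starts, the RefSeq promoters of the members were read first, as the 250 bases before the annotated start. The promoter table (build GRCm38.p6) matched 4 of the 6 genes, T, Eomes, Gsc and Nkx2-5, and held no entry for Mixl1 or Hand1. The T promoter, shown as that of the gene that names the streak programme, and those of Gsc and Nkx2-5, the members with the highest and lowest CpG content relative to base composition, are printed 5′ to 3′ with each CpG in capitals. They lie at chr17:8434173-8434422 (forward strand), chr12:104473237-104473486 (reverse strand) and chr17:26841566-26841815 (reverse strand) on GRCm38.p6, coordinates that are not those of the mm9 regions given further on.
T: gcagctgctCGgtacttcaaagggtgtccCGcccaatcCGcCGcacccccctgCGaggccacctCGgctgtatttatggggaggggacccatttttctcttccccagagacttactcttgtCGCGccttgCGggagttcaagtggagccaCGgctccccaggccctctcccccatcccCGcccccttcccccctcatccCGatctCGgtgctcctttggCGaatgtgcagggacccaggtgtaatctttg
Gsc: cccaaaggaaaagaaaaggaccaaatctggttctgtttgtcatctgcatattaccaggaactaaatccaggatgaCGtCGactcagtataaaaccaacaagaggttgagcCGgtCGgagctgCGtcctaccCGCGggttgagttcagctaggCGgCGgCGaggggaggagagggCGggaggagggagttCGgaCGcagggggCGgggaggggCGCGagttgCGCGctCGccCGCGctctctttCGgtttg
Nkx2-5: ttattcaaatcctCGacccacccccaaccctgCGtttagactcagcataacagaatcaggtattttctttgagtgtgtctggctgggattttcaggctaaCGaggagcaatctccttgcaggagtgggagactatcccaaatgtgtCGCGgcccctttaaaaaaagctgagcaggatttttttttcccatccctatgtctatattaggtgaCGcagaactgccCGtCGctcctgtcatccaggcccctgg

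The Gsc promoter held 22 CpGs and an observed-to-expected CpG ratio of 1.06, higher than or equal to that of 96.7% of the 32851 promoters in the table. T held 14 CpGs with a ratio of 0.594, Eomes 8 with 0.621 and Nkx2-5 8 with 0.535, all above the median of 0.373 over all promoters. These 3 ratios were higher than or equal to those of only 65.6%, 67.5% and 61.8% of the promoters. By GC content the order was different: T had 62.8%, Gsc 59.2%, Nkx2-5 49.2% and Eomes 46.4%, around a median of 52.4%. The capitals show where the CpGs fall: Gsc had 17 in the 125 bases next to the start and 5 in the 125 before them, Nkx2-5 had 5 and 3, T had 6 and 8, and Eomes had 3 and 5. The members thus shared no common placement of CpGs. None of the 4 promoters contained, on either strand, the T-box motif AGGTGTGA (found in 1.12% of all promoters of this length), the TCF/LEF motif CTTTGAT (3.21%), the FOXH1 motif AATCCACA (0.718%), the SMAD palindrome GTCTAGAC (0.167%) or the GATA motif AGATAA (9.99%). This says only that these letters are not in these windows.

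All 6 genes carried H3K27me3 and H3K4me3 in both lines, and at each gene the 2 marks overlapped. For comparison, the genome was laid out in 87959 windows of 30 kb: 11.7% held an H3K27me3 region in both lines, 19.7% an H3K4me3 region in both lines, and 6.06% overlapping regions of the 2 marks in both lines. Of the grid windows with H3K4me3 in both lines, 30.7% met the last condition. The members' windows were drawn around genes and the grid was not, so the grid gives the scale of the count and no test. A region of each mark does not show that both marks sat on the same chromatin in the same cells.

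**Figure D1:**
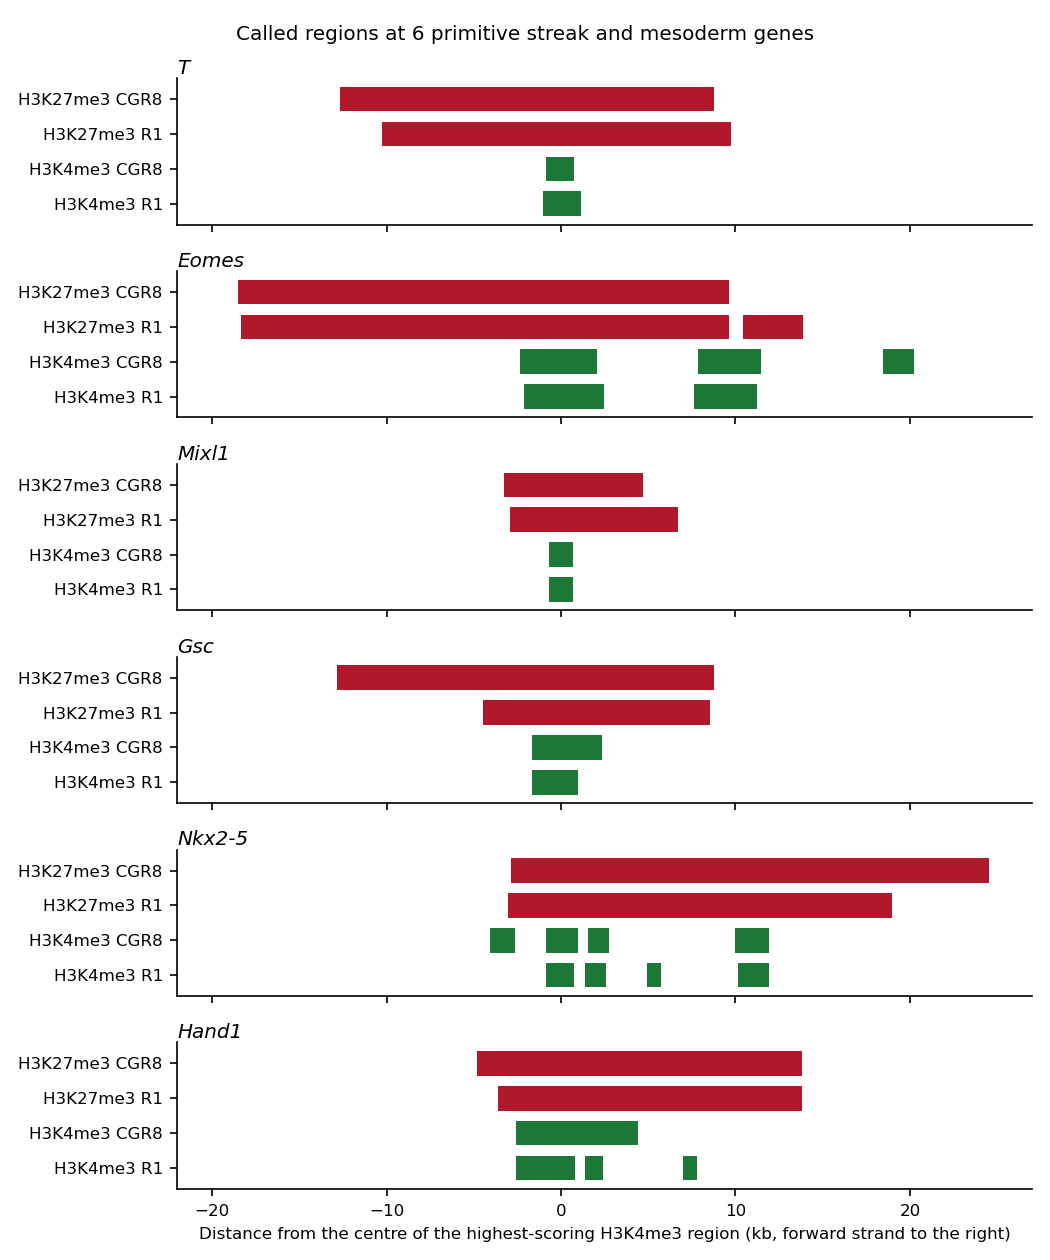
Called regions at the 6 genes, drawn to scale; the x axis is the distance in kb from the centre of the highest-scoring H3K4me3 region (mean of the 2 lines), red bars are H3K27me3 and green bars H3K4me3, with CGR8 above R1. Nearly all of the H3K4me3 regions lie within wider H3K27me3 regions. The highest-scoring H3K4me3 region lies near the middle at T and toward the left end at Nkx2-5, where left is the lower coordinate whatever the strand of the gene.

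The geometry was the same at nearly every member: H3K4me3 regions enclosed by a wider H3K27me3 region, as the map of called regions shows. The highest-scoring H3K4me3 regions of the windows had a median width of 2.9 kb in CGR8 and 2.4 kb in R1. The median was 2.0 kb for all H3K4me3 regions and 1.6 kb for those overlapping H3K27me3, in both lines. The members' median takes only the highest-scoring region of each window and the list medians take every region, so these are not like for like. All H3K4me3 regions in the windows ranged from 1.2 to 7.0 kb in CGR8 and from 0.8 to 4.6 kb in R1. In CGR8, 10 of the 11 H3K4me3 regions in the windows overlapped H3K27me3 and 8 lay wholly inside it. In R1 all 12 overlapped and 11 lay wholly inside. Regions of the same window are not independent, and 4 of them lay at Nkx2-5 in each line. Over the whole lists 28.2% of H3K4me3 regions in CGR8 (7113) and 29.1% in R1 (7176) overlapped H3K27me3. Wholly inside lay 22.5% (5675) and 22.9% (5636), so most overlapping regions were enclosed. The median share under H3K27me3 among overlapping regions was 100% in both lists. Enclosure was thus not particular to the members. In the reverse direction all 6 H3K27me3 regions of CGR8 and all 7 of R1 met H3K4me3, against 41.3% and 48.8% of the lists. The members' regions came from windows drawn around genes and were mostly wider than the list median, so these shares give only a scale. The exceptions to enclosure were at Eomes and, in CGR8, at Nkx2-5.

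The highest-scoring H3K27me3 region of each window, called its main region here, was broad and ranked high at 5 of the 6 genes. T, Eomes, Gsc, Nkx2-5 and Hand1 stood in the highest-scoring 5% of the list in both lines (5.0% of all regions by construction), while Mixl1 did not. The score is the authors' deposited value without a unit and serves only for ranks within a list, and a percentile is the share of the list that scored no higher. The median main region of the members was 21.5 kb wide in CGR8 and 18.7 kb in R1, against 7.6 kb and 6.4 kb for all H3K27me3 regions and 8.6 kb and 7.4 kb for those that overlap H3K4me3. A wide region is also more likely to reach into a window than a narrow one. Counted by bases, regions no wider than the main one held 80.8% (Hand1) to 92.3% (Eomes) of the H3K27me3 cover of CGR8 for the same 5 genes and 71.8% (Gsc) to 93.6% (Eomes) in R1, and 34.5% and 55.9% for Mixl1.

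**Figure D2:**
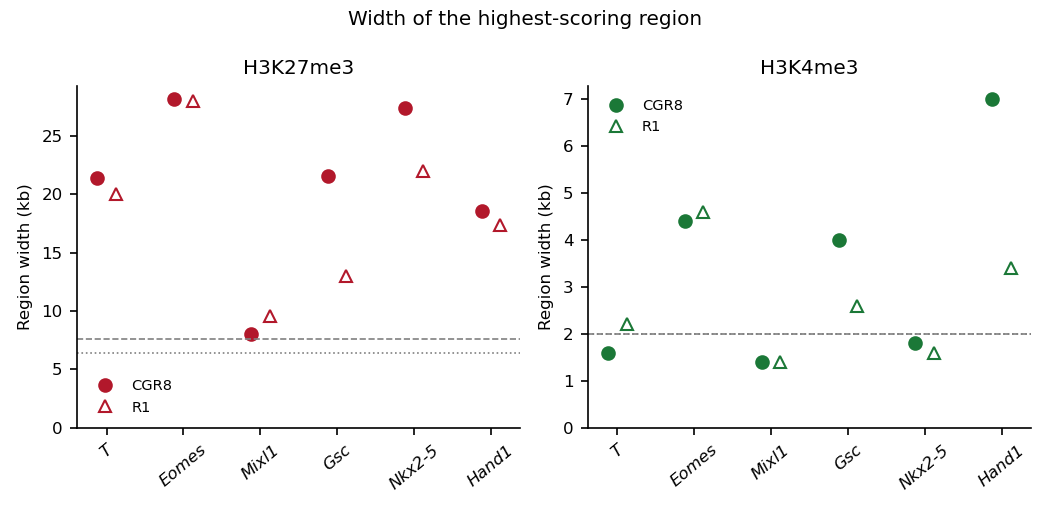
Width in kb of the highest-scoring H3K27me3 (left) and H3K4me3 (right) region at each gene; filled circles are CGR8, open triangles R1, and the dashed and dotted lines the median width of all regions of the CGR8 and R1 list (2 kb in both for H3K4me3). Mixl1, at 8.0 and 9.6 kb, has the narrowest H3K27me3 region in each line, and the CGR8 H3K4me3 region at Hand1 is the widest at 7.0 kb.

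T, also called Brachyury, is required for posterior mesoderm and the notochord and is a direct WNT target. H3K27me3 at T spanned chr17:8614401-8635800 in CGR8 (21.4 kb) and chr17:8616801-8636800 in R1 (20.0 kb). It ranked 330 of 14575 by score in CGR8 and 271 of 12511 in R1, a percentile of 97.7 and 97.8. The 2 lines were thus almost level in both width and rank. A single H3K4me3 region lay inside, chr17:8626201-8627800 in CGR8 (1.6 kb) and chr17:8626001-8628200 in R1 (2.2 kb).

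The H3K4me3 region at T was of middling rank and stood higher in R1. Its score percentile was 42.8 in CGR8 (rank 14438) and 51.5 in R1 (rank 11940), a shift of 8.70 points that 14.3% of all 21972 H3K4me3 pairs between the lines equalled or exceeded in either direction. H3K27me3 extended 11.8 kb to the left and 8.0 kb to the right of it in CGR8, and 9.2 kb and 8.6 kb in R1. H3K4me3 thus sat near the middle of the Polycomb region, with its centre 58.9% of the way along in CGR8 and 51.5% in R1, and it covered 7.48% and 11% of that region. Bases called for both marks in both lines made 1 stretch of 1.6 kb, chr17:8626201-8627800.

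Eomes, the other T-box member, specifies definitive endoderm and is needed for mesoderm to leave the streak. Its main H3K27me3 region was the widest of the 6, chr9:118369201-118397400 in CGR8 (28.2 kb) and chr9:118369401-118397400 in R1 (28.0 kb). The right end was the same in the 2 lines and the left end moved by 0.2 kb, 1 step of the 200 bp grid on which all starts and ends lie. The regions shared 99.3% of the bases covered in either line, against a median of 74.4% over 8167 H3K27me3 pairs. They ranked 177 in CGR8 and 134 in R1. The likeness in width depends on how gaps were called. To the left, outside the window, a 7.2 kb region ended 0.8 kb before the main one in R1 and a 6.8 kb region 2.6 kb before it in CGR8. With regions less than 1000 bp apart merged, the main region was 28.2 kb wide in CGR8 and 40.2 kb in R1.

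The strongest H3K4me3 region among the members also lay at Eomes. It spanned chr9:118385401-118389800 in CGR8 (4.4 kb) and chr9:118385601-118390200 in R1 (4.6 kb), with score percentiles of 77.8 and 77.4, and lay wholly inside H3K27me3. A further H3K4me3 region lay across the right end of the H3K27me3 region in both lines, chr9:118395601-118399200 in CGR8 and chr9:118395401-118399000 in R1, 3.6 kb wide in each. The part under any H3K27me3 region was 50% in CGR8 and 77.8% in R1, where 0.8 kb of it lay under a separate small region given below. Under the main region alone lay 77.5% of the bases of both H3K4me3 regions together in CGR8 and 80.5% in R1. The region across the right end was of lower rank, with percentiles of 50.03 and 47.9.

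At this right end the lists differed by regions of very low score. R1 had a separate H3K27me3 region at chr9:118398201-118401600 (3.4 kb), which began 0.8 kb after the main one and stood at percentile 0.623 of its list. CGR8 had no region there. CGR8 instead had an H3K4me3 region at chr9:118406201-118408000 (1.8 kb, percentile 3.08), the only H3K4me3 region of the 23 in the windows that met no H3K27me3. By these calls, 63.3% of the H3K4me3 cover of the Eomes window lay under H3K27me3 in CGR8 and 90.2% in R1. In RefSeq order the next coding gene after Eomes is Golga4, and the outlying region was not assigned to a gene here.

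Mixl1, a paired-type homeodomain factor of the streak, differed from the other members in the size of its Polycomb region. H3K27me3 spanned chr1:182623801-182631800 in CGR8 (8.0 kb) and chr1:182624201-182633800 in R1 (9.6 kb). It ranked 2531 in CGR8 and 2119 in R1, percentiles of 82.6 and 83.1, below every other member and still above most of the list. By width it stood at percentile 56.1 in CGR8 and 77.5 in R1.

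H3K4me3 at Mixl1 was called at chr1:182626401-182627800 in both lines, with identical ends and a width of 1.4 kb, the narrowest of the members' strongest regions. Its score percentile was 60.0 in CGR8 and 59.7 in R1. Scored per kb it was the densest of the 6, at percentile 72.5 in CGR8 and 73.2 in R1, and neither line overlapped the next gene, Eomes, at 62.1 and 58.9. The H3K27me3 flanks were short, 2.6 kb to the left and 4.0 kb to the right in CGR8 and 2.2 kb and 6.0 kb in R1. No further H3K27me3 region was called within 203.8 kb to the left in CGR8 or 205.6 kb in R1, and the next to the right began after 209.2 kb and 59.0 kb.

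Gsc, goosecoid, is the homeodomain factor of the organizer at the anterior streak, and its Polycomb region differed most in width between the lines. H3K27me3 spanned chr12:105698201-105719800 in CGR8 (21.6 kb) and chr12:105706601-105719600 in R1 (13.0 kb), a ratio of 1.66 against a median of 1.24 over all pairs. The right ends lay 0.2 kb apart and the left ends 8.4 kb apart, so the extra length of CGR8 was almost all on the left side. The ranks were close all the same, 295 in CGR8 (percentile 98.0) and 376 in R1 (97.0). By score per kb R1 stood higher, at percentile 98.2 against 96.3.

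H3K4me3 at Gsc, the member with the CpG-densest promoter of the 4 matched, spanned chr12:105709401-105713400 in CGR8 (4.0 kb) and chr12:105709401-105712000 in R1 (2.6 kb), with the same left end. Its score percentiles were 64.0 and 61.8. H3K27me3 reached 11.2 kb to the left and 6.4 kb to the right of it in CGR8, and 2.8 kb and 7.6 kb in R1. The longer H3K4me3 region was thus in the line with the longer H3K27me3 region, with 18.5% of the Polycomb region covered in CGR8 and 20.0% in R1.

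Nkx2-5, a homeodomain factor of cardiac progenitors, had the highest-ranking Polycomb region of the 6. H3K27me3 spanned chr17:26973401-27000800 in CGR8 (27.4 kb, rank 115) and chr17:26973201-26995200 in R1 (22.0 kb, rank 122), percentiles of 99.2 and 99.0. The left ends lay 0.2 kb apart and the right ends 5.6 kb apart. The region ran beyond the window on the right in both lines.

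H3K4me3 at Nkx2-5 was split into 4 regions in each line, 3 of which had a partner in the other line. The number depends on how gaps were called. With regions less than 1000 bp apart merged, each line had 3, the strongest 3.6 kb wide in CGR8 and 3.4 kb in R1. The main regions of Eomes (2 in each line) and of Hand1 in R1 (3) also met more than 1, as did 5.76% of all H3K27me3 regions in CGR8 and 6.26% in R1, which met 2 or more. The strongest H3K4me3 region at Nkx2-5 spanned chr17:26975401-26977200 in CGR8 (1.8 kb, percentile 53.0) and chr17:26975401-26977000 in R1 (1.6 kb, percentile 50.8). The next, chr17:26977801-26979000 in CGR8 and chr17:26977601-26978800 in R1, was 1.2 kb wide and stood at percentiles of 38.2 and 37.2. The one farthest right, chr17:26986201-26988200 in CGR8 and chr17:26986401-26988200 in R1, stood at 48.7 and 49.0, close behind the strongest. These 3 pairs lay wholly inside H3K27me3 and gave 3 stretches with both marks in both lines, 4.4 kb in all.

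The unpaired regions at Nkx2-5 were weak. CGR8 alone had one at chr17:26972201-26973600, of which H3K27me3 covered 14.3%, at percentile 14.5. R1 alone had one at chr17:26981201-26982000, inside H3K27me3, at percentile 13.9. The strongest H3K4me3 region lay near the left end of the Polycomb region, with 2.0 kb of H3K27me3 before it and 23.6 kb after it in CGR8 and 2.2 kb and 18.2 kb in R1. The centre of the strongest H3K4me3 region lay 10.6% of the way along H3K27me3 in CGR8 and 13.6% in R1. Hand1 was placed similarly in R1 (15.5%) and less so in CGR8 (30.6%), and the other members ranged from 30.2% (Mixl1, R1) to 66.1% (Eomes, R1). Positions run from the lower coordinate and were not turned to the strand of the gene. T and Eomes lie on the forward strand and Gsc and Nkx2-5 on the reverse, so left is not the same side of each gene. The R1 value of Hand1 is for the left piece of a stretch that was called as a single region in CGR8.

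Hand1, a basic helix-loop-helix factor of extraembryonic and cardiac mesoderm and also of trophoblast giant cells, had H3K27me3 over chr11:57638401-57657000 in CGR8 (18.6 kb) and chr11:57639601-57657000 in R1 (17.4 kb). It ranked 246 in each list, percentiles of 98.3 and 98.0. The right end was identical and the left end lay 1.2 kb apart, and 93.5% of the bases covered in either line were shared.

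Among the highest-scoring H3K4me3 regions of the 6 windows, that of Hand1 had the lowest score per kb in both lines and was the widest in CGR8. In CGR8 it formed 1 region of 7.0 kb, chr11:57640601-57647600, wider than or as wide as 98.5% of the list yet at percentile 20.8 by score per kb. In R1 the same stretch held 2 regions, chr11:57640601-57644000 (3.4 kb) and chr11:57644601-57645600 (1.0 kb), 0.6 kb apart, at percentiles of 22.5 and 45.7 by score per kb. A further R1 region, chr11:57650201-57651000, stood at percentile 0.857 and had no CGR8 partner. H3K4me3 covered 37.6% of the Polycomb region in CGR8 and 29.9% in R1, the largest share among the members, against a median of 18.2% and 21.1% over all H3K27me3 regions with H3K4me3.

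The strongest H3K4me3 region of Hand1 stood at score percentile 52.1 in CGR8 and 42.0 in R1. That shift of 10.1 points was equalled or exceeded by 11.3% of all pairs, and the R1 value is that of the left of the 2 pieces. With regions less than 1000 bp apart merged, which unites the pieces, the percentiles were 50.7 in CGR8 and 49.0 in R1. The same merging left T at 41.4 and 50.2. By score per kb the unmerged regions stood at 20.8 and 22.5.

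**Figure D3:**
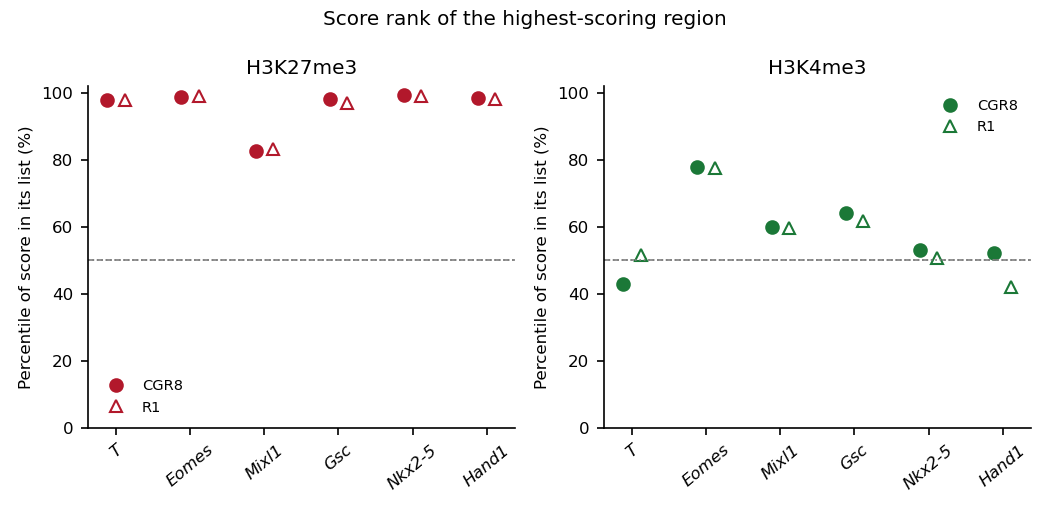
Score percentile of the highest-scoring H3K27me3 (left) and H3K4me3 (right) region within its own list; filled circles are CGR8, open triangles R1, and the dashed line marks the middle of the list. H3K27me3 lies above 97 at 5 genes and near 83 at Mixl1, while H3K4me3 spreads from 42.0 to 77.8.

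Set side by side, the members other than Mixl1 were alike in the rank of H3K27me3, while their H3K4me3 ranks were spread more widely. By H3K27me3 width the order was Eomes (28.1 ± 0.141 kb, SD, n = 2), Nkx2-5 (24.7 ± 3.82 kb), T (20.7 ± 0.990 kb), Hand1 (18.0 ± 0.849 kb), Gsc (17.3 ± 6.08 kb) and Mixl1 (8.80 ± 1.13 kb). Hand1 and Gsc overlapped in their ranges over the lines, and Gsc in CGR8, at 21.6 kb, was also wider than T in either line. Mixl1 lay below all others in both lines. With regions less than 1000 bp apart merged, Eomes stood at 28.2 kb in CGR8 and 40.2 kb in R1, so its small SD holds for the unmerged regions only.

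By H3K27me3 score percentile the order was Nkx2-5 (99.1 ± 0.131, SD, n = 2), Eomes (98.9 ± 0.102), Hand1 (98.2 ± 0.196), T (97.8 ± 0.0701), Gsc (97.5 ± 0.693) and Mixl1 (82.9 ± 0.304), with T and Gsc overlapping in range. By score per kb the order was Nkx2-5, Hand1, Gsc and Eomes, each overlapping its neighbour in range, and then T and Mixl1, which overlapped none. Mixl1 was again last, at 89.2 in CGR8 and 79.9 in R1. The order of the first 5 therefore depends on the measure, and the last place of Mixl1 was common to width, score and score per kb.

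For H3K4me3 the score percentile fell from Eomes (77.6 ± 0.279, SD, n = 2) through Gsc (62.9 ± 1.51), Mixl1 (59.8 ± 0.177) and Nkx2-5 (51.9 ± 1.54) to T (47.2 ± 6.15) and Hand1 (47.1 ± 7.17). Nkx2-5, T and Hand1 overlapped in their ranges. With regions less than 1000 bp apart merged, Nkx2-5 stood at 56.8 in CGR8 and 54.8 in R1. It then lay above T (41.4 and 50.2) and Hand1 (50.7 and 49.0) in both lines. The median over the members was 56.5 in CGR8 and 55.6 in R1, near the middle of the lists, where that of H3K27me3 was 98.2 and 97.9. By score, H3K4me3 at the members other than Eomes thus stood nearer the middle of the list and H3K27me3 at the members other than Mixl1 near the top. By width the H3K4me3 median over the members was 68.1, with Eomes at 93.4, Hand1 at 92.3 and Gsc at 81.6. These percentiles are of the highest-scoring region of each window, set against lists of all regions.

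**Figure D4:**
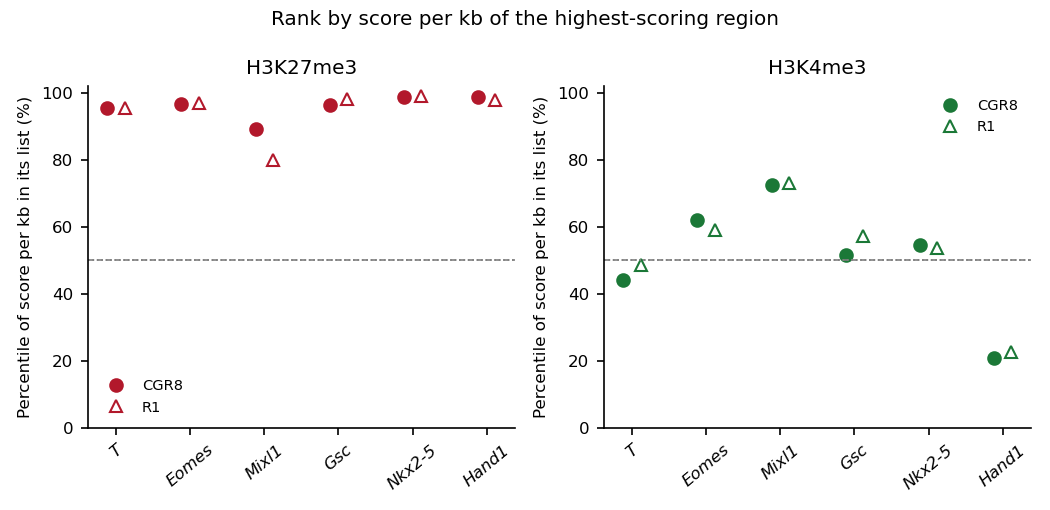
Percentile of the score per kb of the same regions within their list, H3K27me3 left and H3K4me3 right; filled circles are CGR8, open triangles R1, and the dashed line marks the middle of the list. Hand1 lies lowest for H3K4me3, at 20.8 and 22.5, and Mixl1 highest, at 72.5 and 73.2.

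Between the lines the members' main H3K27me3 regions held their rank closely. The largest shift in score percentile from CGR8 to R1 was -0.980 at Gsc, against a median absolute shift of 7.70 points over all H3K27me3 pairs, which include many low regions that have more room to move. The H3K4me3 shifts were -0.395 at Eomes, -0.250 at Mixl1, -2.14 at Gsc and -2.18 at Nkx2-5, all smaller than the median absolute shift of 2.84, and larger than it at T and Hand1. The main H3K27me3 regions moved by 0.2 to 8.4 kb at the left end and by 0 to 5.6 kb at the right end, with a median of 0.8 kb at either end over all pairs.

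The 5 regions in the windows without a partner in the other line all stood low in their lists, the highest of them at percentile 14.5. They were 4 H3K4me3 regions, 2 in each line, and the small R1 H3K27me3 region at Eomes. Partners were found for 89.8% of all H3K4me3 regions in CGR8 and 92.6% in R1, and for 67.1% and 81.1% of H3K27me3 regions. Both marks were called in both lines at every member, and bases with both marks in both lines amounted to 1.4 kb at Mixl1, 1.6 kb at T, 2.6 kb at Gsc, 4.4 kb at each of Nkx2-5 and Hand1 and 6.0 kb at Eomes. With 2 libraries a mark, an exact permutation test of the marks' widths could not go below p = 0.333 (two-sided). That floor ignores the pairing of the marks by line, and no such test was run.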

How the data were processed

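H3K27me3 and H3K4me3 were each measured in 1 library of CGR8 (replicate 1) and of R1 (replicate 2), with groups taken from the sample titles. Bowtie2 2.0.2, SICER 1.1, bedtools 2.20.1 and build mm9 are named in the submitters' processing notes. No source used here gives settings, a control library or read totals. The authors deposited 1 list per library, with a score of no stated unit, used here only for ranks within a list. The smallest gap between regions was 800 bp for H3K27me3 and 400 bp for H3K4me3, so shorter gaps count as covered and can widen a region.

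Windows came from the gene list. The members and all measures were chosen with earlier results of these data known, and all 6 members are named. Starts were counted from 1, and regions overlapped when they shared at least 1 bp. Percentages over all regions or grid windows are descriptions, and no test was run. Grid windows covered each chromosome up to the last called position. Lines are compared over regions with 1 partner each for the background values, and over the main regions for the members. Overlap counting was tested on 3 simulated pairs of lists of 2000 regions each and returned the planted numbers in all of them. Promoter sequences are from RefSeq (GRCm38.p6); no mm9 gene annotation was used here, so start sites were not placed in the windows and other genes of the pathway were not analysed here. Alternatives are a wider or narrower window, lists cut to equal length or to their higher-scoring 50%, merged regions, other ranks, a stricter overlap and each line alone. Computations used Python 3.11.15, numpy 2.4.6, pandas 2.3.3 and matplotlib 3.10.9.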

Additional observations from a re-analysis of the deposited data

How the results depend on the processing

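All 6 genes kept overlapping marks in both lines with windows 10 kb wider on each side or reduced to their middle 50%, with lists of equal length, with regions less than 1000 bp apart merged, with 50% of the H3K4me3 region required under H3K27me3, and in each line alone. With the higher-scoring 50% of each list the count was 4, since no H3K4me3 region was left at T in CGR8 or at Hand1 in R1, while H3K27me3 was left at all 6. The share of grid windows with overlapping marks in both lines was 6.06% at 30 kb, 4.31% at 20 kb and 7.77% at 40 kb.

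The median H3K27me3 cover over genes was 18.2 kb, 21.9 kb with wider windows and 11.6 kb with the middle of the windows. The median H3K4me3 cover was 4.55 kb, and 2.40 kb with the higher-scoring 50%. The median H3K27me3 score percentile was 98.0, against 96.1 within the higher-scoring 50%, 97.9 with lists of equal length, 97.9 with merged regions, 97.0 ranked by score per kb and 95.7 ranked by width. For H3K4me3 it was 56.0, against 19.7 within the higher-scoring 50%, which re-ranks the genes that are left, 57.2 with merged regions, 54.3 by score per kb and 68.1 by width. In CGR8 and R1 alone, these medians ranged from 17.1 to 19.2 kb, 3.90 to 5.20 kb, 97.9 to 98.2 and 55.6 to 56.5. No paired analysis was run because no result comes from a test, and marks were compared within each line. The read depth of the libraries limits what was called and is not known.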
